A study of Homo sapiens with 14 samples.

Results

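The 6 human DLX genes were examined as 3 neighbouring pairs, DLX1 with DLX2, DLX3 with DLX4 and DLX5 with DLX6. They are 6 of the 20037 protein-coding genes placed on GRCh38 by the gene table used here. The genes were chosen by family name. The regions described are those that overlapped a DLX gene span or the 20 kb on either side of it in any of 9 peak lists. Each was counted once in its own list, so a place called in several lists counts in each. Summed over the lists, this gave 143 of 183499 called regions, which held 309 summits. The DLX1 and DLX2 window held 88 of these regions, the DLX5 and DLX6 window 38, and the DLX3 and DLX4 window 17.

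The lists come from chromatin immunoprecipitation and sequencing (ChIP-seq) in HS-SY-II, an established human synovial sarcoma cell line. GLTSCR1, a subunit of the chromatin remodelling complex GBAF and of no other BAF complex, was precipitated after 12, 24, 48 and 96 h of 100 nM WA-68 and in DMSO vehicle. The HA-tagged SS18::SSX fusion, the oncoprotein of synovial sarcoma, was precipitated after 12, 24 and 48 h of 100 nM WA-68 and in DMSO. WA-68 is a PROTAC degrader of BRD9, a bromodomain subunit of GBAF. All groups carry the genotype label WT, and the labels do not say how the HA tag was introduced or whether the cells are 1 clone. They give no time for DMSO, so that time in culture and time of WA-68 cannot be told apart. The 5 input libraries (no antibody) were not used here.

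DLX genes encode homeodomain transcription factors related to fly Distal-less. In vertebrates they lie in convergently transcribed pairs, each on the chromosome of a HOX cluster, and enhancers between the genes of a pair are known from mouse and zebrafish. The genes pattern the branchial arches and limbs, and some also specify forebrain interneurons. Their proteins bind DNA with a TAATT core.

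Promoter sequences from RefSeq (GRCh38.p14) were matched for DLX1, DLX2 and DLX6 and not for DLX3, DLX4 and DLX5. They are printed because the called regions over them differed between times and between the antibodies. Each runs 5′ to 3′ on the strand of its gene, from 250 bases before the annotated start to 50 bases after it. The intervals are chr2:172085257-172085556 (plus strand) for DLX1, chr2:172102851-172103150 (minus strand) for DLX2 and chr7:97005303-97005602 (plus strand) for DLX6. Capitals mark matches, on either strand, to 4 motifs: TAATT (the homeodomain core), TGANTCA (AP-1), GGGCGG (the GC box) and CCAAT (the CCAAT box).
DLX1: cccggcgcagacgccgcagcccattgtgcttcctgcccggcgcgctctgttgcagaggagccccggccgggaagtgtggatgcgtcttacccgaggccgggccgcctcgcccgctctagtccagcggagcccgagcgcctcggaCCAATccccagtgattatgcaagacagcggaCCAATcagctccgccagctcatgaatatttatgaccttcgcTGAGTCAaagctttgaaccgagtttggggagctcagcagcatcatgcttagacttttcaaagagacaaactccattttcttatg
DLX2: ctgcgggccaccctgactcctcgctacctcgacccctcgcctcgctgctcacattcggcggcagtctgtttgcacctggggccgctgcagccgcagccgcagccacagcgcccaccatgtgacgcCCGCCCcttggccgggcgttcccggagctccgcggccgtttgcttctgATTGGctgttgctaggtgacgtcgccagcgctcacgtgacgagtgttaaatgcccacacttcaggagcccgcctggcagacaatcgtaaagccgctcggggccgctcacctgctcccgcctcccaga
DLX6: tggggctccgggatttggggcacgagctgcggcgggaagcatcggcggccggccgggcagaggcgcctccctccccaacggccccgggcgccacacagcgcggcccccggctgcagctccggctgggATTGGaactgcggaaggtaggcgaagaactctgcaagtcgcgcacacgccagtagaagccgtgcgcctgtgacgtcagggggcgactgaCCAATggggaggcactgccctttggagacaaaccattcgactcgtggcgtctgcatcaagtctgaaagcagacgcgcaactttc

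The homeodomain core had 0 matches in each of the 3 promoters, a motif that 24.8% of 35116 RefSeq promoters of this length hold. CCAAT boxes stood in all 3, at -106 and -75 in DLX1, -77 in DLX2, and -123 and -34 in DLX6, counted from the annotated start to the first base of the match. Of all promoters, 34.6% hold this motif. DLX1 had an AP-1 match at -34 (7.71% of promoters hold one) and DLX2 a GC box at -125 (45.0% hold one). No match overlapped another. The number of CG dinucleotides was 23 in DLX1 (percentile 66.1 of all promoters) and 30 in both DLX2 and DLX6 (percentile 79.3), against a median of 14. A match is a run of letters and not a bound site.

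The lists covered these promoters unevenly. At DLX1, GLTSCR1 regions covered 300 of the 300 bases in DMSO, 0 at 12, 24 and 48 h, and 80 at 96 h, with the nearest regions 94, 453 and 302 bp away where none overlapped. Fusion regions covered 300 bases of the DLX1 promoter in DMSO, 0 at 12 and 24 h (312 and 389 bp away) and 300 at 48 h. The AP-1 and CCAAT matches of DLX1 were thus under regions of both antibodies in DMSO and outside the regions of both at 12 and 24 h. At DLX2, GLTSCR1 regions covered 271, 300, 0, 73 and 0 bases from DMSO to 96 h, and fusion regions 300, 300, 13 and 190 bases from DMSO to 48 h. At DLX6, no GLTSCR1 region overlapped the promoter in any list, while fusion regions covered 0 bases in DMSO (2 bp away), 0 at 12 h (265 bp away) and 300 at both 24 and 48 h. DLX2 was the only one of the 3 promoters with fusion regions over it in all 4 fusion lists. For GLTSCR1 the count of overlapped promoters was 2 of 3 in DMSO, beside 18.4% of all promoters, then 1 at 12 h (14% of promoters), none at 24 h (6.81%), DLX2 alone at 48 h (5.47%) and DLX1 alone at 96 h (7.3%). For the fusion it was 2 of 3 in DMSO (10.5% of promoters) and 1 at 12 h (9.2%). DLX2 and DLX6 were overlapped at 24 h (8.4%), and all 3 promoters at 48 h (10.2%).

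The DLX genes are short, between 3.46 kb (DLX2) and 6.39 kb (DLX4), against a median span of 24.1 kb over the protein-coding genes. DLX1 lies at chr2:172085507-172089674 and DLX2 at chr2:172099438-172102900, 9.76 kb apart and 3.98 Mb from the HOXD cluster. DLX4 lies at chr17:49968572-49974959 and DLX3 at chr17:49990005-49995224, 15.0 kb apart and 1.24 Mb from HOXB. DLX6 lies at chr7:97005553-97011040 and DLX5 at chr7:97020396-97024831, 9.36 kb apart and 69.8 Mb from HOXA. The gene table gives spans without exons, introns or UTRs, so positions are given as inside a gene span, between the genes of a pair, or beyond an end. With 20 kb on either side, the windows measured 57.4, 66.7 and 59.3 kb. The called regions stayed close to the genes: in all 9 lists they lay within 11.1 kb of the DLX1 and DLX2 spans, 3.38 kb of the DLX3 and DLX4 spans and 9.85 kb of the DLX5 and DLX6 spans. The nearest regions outside the windows were 24.4, 31.7 and 92.4 kb from the spans.

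Each group held 1 library, so there was no replicate error and no test between conditions was made. Whole lists held 13677 to 18037 GLTSCR1 regions and 24846 to 28619 fusion regions. Fold is the authors' enrichment at the strongest summit of a region over local background, a value of that peak alone, and it is used here only to describe and rank regions within the same list. Read depth is unknown from peak lists. A position with no region only missed the threshold of the peak caller in that library, and absence of the protein cannot be read from it. The intervals given for shares of regions are exact 95% Clopper-Pearson intervals. They cover counting error alone, and neighbouring regions are not independent.

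All 6 DLX genes had a region within 20 kb in at least 4 of the 9 lists, as did 42.4% of protein-coding genes. The cut of 4 equals the lowest value among the 6, that of DLX4, so no contrast is read from it. DLX1 and DLX2, which act in forebrain interneurons and the upper jaw, had a region in all 9 lists. DLX3, known from hair, tooth enamel and bone, had one in 4 GLTSCR1 and 4 fusion lists, as did DLX5 and DLX6, which pattern the lower jaw and limb. DLX4, a pair partner of DLX3 known from placenta, had one in 1 GLTSCR1 list and 3 fusion lists. For GLTSCR1, 5 of 6 genes had a region in DMSO, where 50.3% of protein-coding genes did, and 5 did at 12 h (47.2%) and 24 h (36.6%). At 48 h 3 genes did, beside 28.8%, and at 96 h 5, beside 35.8%. DLX3 was the gene without one in DMSO, DLX4 at every later time, and DLX5 and DLX6 at 48 h. For the fusion, 6 of 6 genes had a region in DMSO (33.9% of genes), 5 at 12 h (33.6%), where DLX4 was missing, and 6 at both 24 h (30.9%) and 48 h (32.7%). A region was present in all 5 GLTSCR1 lists for 2 of 6 (19.5% of genes), in all 4 fusion lists for 5 of 6 (20.1%) and in all 9 for 2 of 6 (11.6%). The 2 genes of a pair share most of their window, so these counts rest on 3 loci.

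**Figure D1:**
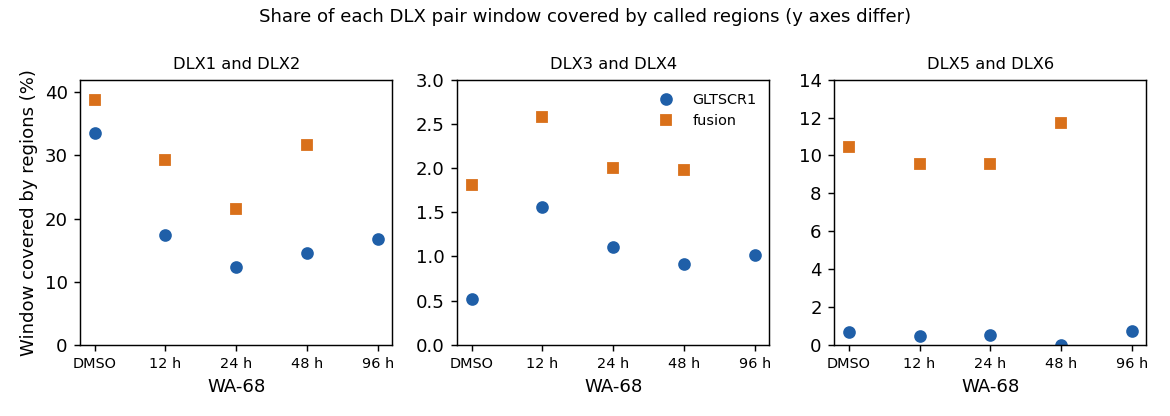
Share of each DLX pair window (gene spans with 20 kb either side) under called regions, in percent, for GLTSCR1 (circles) and the fusion (squares) in DMSO and after WA-68, 1 library per point and a different y axis for each pair. Coverage reached 38.8% at DLX1 and DLX2, stayed under 3% at DLX3 and DLX4, and at DLX5 and DLX6 lay between 9.54 and 11.7% for the fusion and under 1% for GLTSCR1.

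Coverage set the pairs apart more than the counts did. The DLX1 and DLX2 window was under GLTSCR1 regions over 33.6% of its bases in DMSO, and after WA-68 over 17.3% (12 h), 12.3% (24 h), 14.5% (48 h) and 16.8% (96 h). The same window was under fusion regions over 38.8% in DMSO, and after WA-68 over 29.3% (12 h), 21.6% (24 h) and 31.7% (48 h). Both antibodies had their highest share in DMSO and their lowest at 24 h. The DLX1 gene window alone, 43.6% covered by GLTSCR1 in DMSO and 16.0% at 24 h, stood at percentiles 99.4 to 99.6 of all protein-coding genes in the 5 GLTSCR1 lists and 98.5 to 99.6 in the 4 fusion lists. Fewer bases were also covered over the whole GLTSCR1 lists, at 8.55 to 11.1 Mb after WA-68 against 16.8 Mb in DMSO, and what this adds to the difference at DLX1 and DLX2 was not tested. The plot of covered share shows that neither of the other pairs had this pattern: the DLX3 and DLX4 window was 0.513 to 1.56% covered by GLTSCR1, lowest in DMSO, and 1.81 to 2.58% covered by the fusion. The DLX5 and DLX6 window was 0 to 0.702% covered by GLTSCR1 and 9.54 to 11.7% by the fusion.

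**Figure D2:**
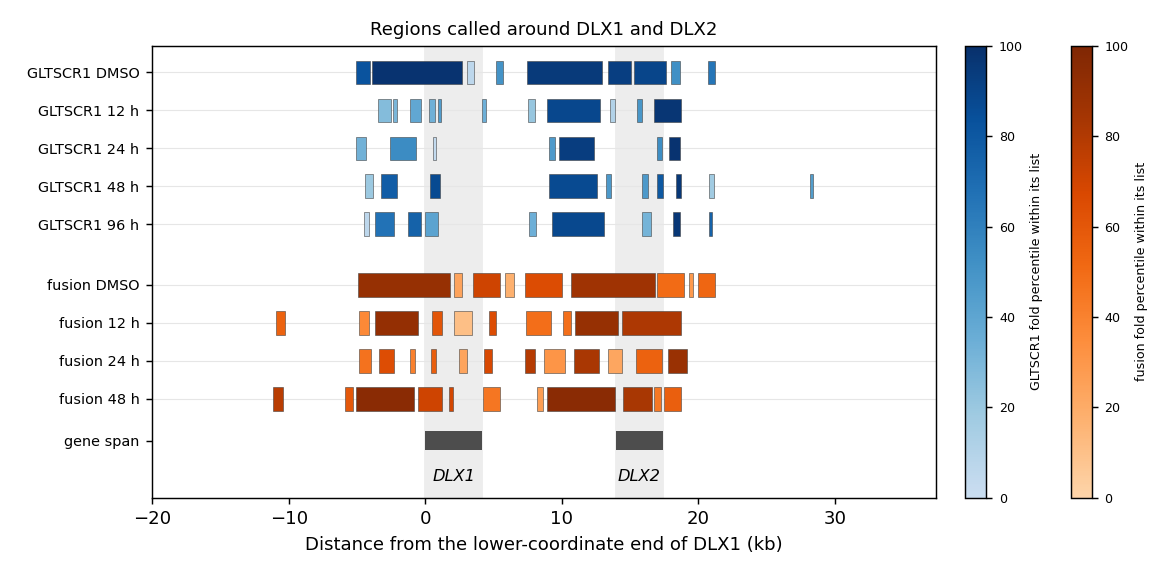
Called regions along the DLX1 and DLX2 window, 1 row per list, by distance in kb from the lower-coordinate end of DLX1; colour gives the fold percentile within the list (blue for GLTSCR1, orange for the fusion) and grey bars the gene spans. In DMSO wide regions lie over both genes and the stretch between them, while later GLTSCR1 rows keep a block between the genes and a high-ranking region at the upper end of DLX2.

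At DLX1 and DLX2 the number of regions changed less than their width. GLTSCR1 had 9, 11, 7, 10 and 9 regions from DMSO to 96 h, and the fusion 9, 10, 12 and 11 from DMSO to 48 h. The widest GLTSCR1 region measured 6.60 kb in DMSO and 2.53 to 3.86 kb later, and the widest fusion region 6.76 kb in DMSO and 1.95 to 4.97 kb later. Single wide regions in DMSO thus stood where several narrower ones did at later times, as the map of this window shows.

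After WA-68, GLTSCR1 regions covered less of both gene bodies than in DMSO, and the stretch between the genes kept the largest share. The DLX1 span was under GLTSCR1 regions over 78.0% of its bases in DMSO, 16.5% (12 h), 6.26% (24 h), 17.0% (48 h) and 22.8% (96 h). The DLX2 span was under them over 92.1% in DMSO, 29.2% (12 h), 11.4% (24 h), 26.6% (48 h) and 20.04% (96 h). Between the genes the share was 66.8% in DMSO, 50.3% (12 h), 30.0% (24 h), 40.2% (48 h) and 44.9% (96 h). For GLTSCR1 the stretch between the genes was therefore the most covered of the 3 at every WA-68 time and the least covered of them in DMSO. Fusion regions covered the DLX1 span over 73.0, 48.7, 21.6 and 36.5% and the DLX2 span over 95.5, 90.6, 69.2 and 75.8% from DMSO to 48 h. Between the genes the fusion covered 80.5, 60.2, 53.7 and 68.3% at the same times. The DLX2 span thus stayed the most covered of the 3 for the fusion, and DLX1 the least covered, in all 4 lists.

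The strongest GLTSCR1 summit also lay elsewhere in the later lists than in DMSO. In DMSO it had a fold of 14.4 (percentile 98.3) in a 6.60 kb region with 10 summits at chr2:172081592-172088188, over the lower end of DLX1. That region and its neighbours below DLX1 also reach the upper end of METAP1D, a mitochondrial methionine aminopeptidase gene 3.08 kb from DLX1, and cannot be assigned to 1 gene. At every later time the strongest summit stood 1.03 to 1.12 kb beyond the upper end of DLX2, inside the divergent lncRNA gene DLX2-DT, with folds of 11.4 (12 h), 12.4 (24 h), 10.7 (48 h) and 11.5 (96 h). Those folds ranked at percentiles 96.9, 98.1, 95.8 and 96.4 of their lists. In DMSO a region lay there too, with a fold of 5.04 at percentile 52.1. The fusion's strongest summit was below DLX1 in DMSO (fold 8.32, percentile 90.3), at 12 h (8.36, percentile 91.4) and at 48 h (10.3, percentile 95.3). At 24 h it was in DLX2-DT (7.59, percentile 89.0), 0.971 kb from DLX2. The region at this lncRNA was therefore the first-ranked of the window for GLTSCR1 in 4 of 5 lists and for the fusion in 1 of 4.

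Some bases at DLX1 and DLX2 were under regions in every list. The 5 GLTSCR1 lists shared 6 stretches with 3404 bp in all, of which 2527 bp formed 1 run at chr2:172095312-172097838 between the genes, 5.64 kb from DLX1 and 1.60 kb from DLX2. The 4 fusion lists shared 12 stretches with 7682 bp. All 9 lists together shared 5 stretches with 1985 bp: 1360 bp at chr2:172096479-172097838 between the genes, 307 bp at chr2:172103832-172104138 in DLX2-DT, 175 bp at chr2:172086054-172086228 inside DLX1, and 85 and 58 bp below DLX1. DLX1 and DLX2 were the 2 of 6 DLX genes with a base under all 9 lists, beside 5.45% of protein-coding genes. A base under all 5 GLTSCR1 lists was also found for 2 of 6 (14.3% of genes), one under the 4 GLTSCR1 lists after DMSO for 3 of 6, with DLX3 added (16.8%), and one under all 4 fusion lists for 4 of 6 (15.2%), the members of the first and last pairs.

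The regions that held these shared bases ranked differently. The GLTSCR1 region over the shared run between the genes had folds of 10.4, 7.89, 8.93, 7.80 and 7.93 from DMSO to 96 h, at percentiles 94.8, 88.5, 93.3, 87.3 and 88.0. The fusion regions over the 1360 bp had folds of 7.40, 7.97, 6.64 and 10.3 from DMSO to 48 h, at percentiles 86.5, 90.1, 82.6 and 95.1, and in DMSO that region ran on into DLX2, where its strongest summit lay. The regions over the block thus ranked at percentile 82.6 or above in every list, though the strongest summit that sets the rank lay outside the 1360 bp in some of them. These regions held 4 to 11 summits each, and what their width adds to the ranks was not tested. The GLTSCR1 region inside DLX1 was part of the 6.60 kb region in DMSO and stood alone at 12 h (fold 4.35, percentile 33.8), 24 h (3.11, percentile 3.96) and 48 h (7.76, percentile 86.9). At 96 h it reached the DLX1 promoter (fold 4.62, percentile 41.2). Its rank therefore had no steady place in the lists, although it was called in all of them.

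Other regions of the window were called in some lists only. A second place in DLX2-DT, 3.55 to 3.61 kb beyond DLX2, had a GLTSCR1 region in DMSO (fold 5.71, percentile 65.0), at 48 h (3.91, percentile 17.5) and at 96 h (6.34, percentile 75.0), and a fusion region overlapped it in DMSO (4.70, percentile 52.5). The fusion alone had a region inside METAP1D at 12 h (fold 4.70, percentile 54.6) and 48 h (6.23, percentile 77.5), 10.4 and 10.6 kb below DLX1. GLTSCR1 alone had one at 48 h at chr2:172113669-172113908, 10.9 kb beyond DLX2 (fold 4.84, percentile 45.0). The last 2 places were the farthest from the spans of this pair.

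**Figure D3:**
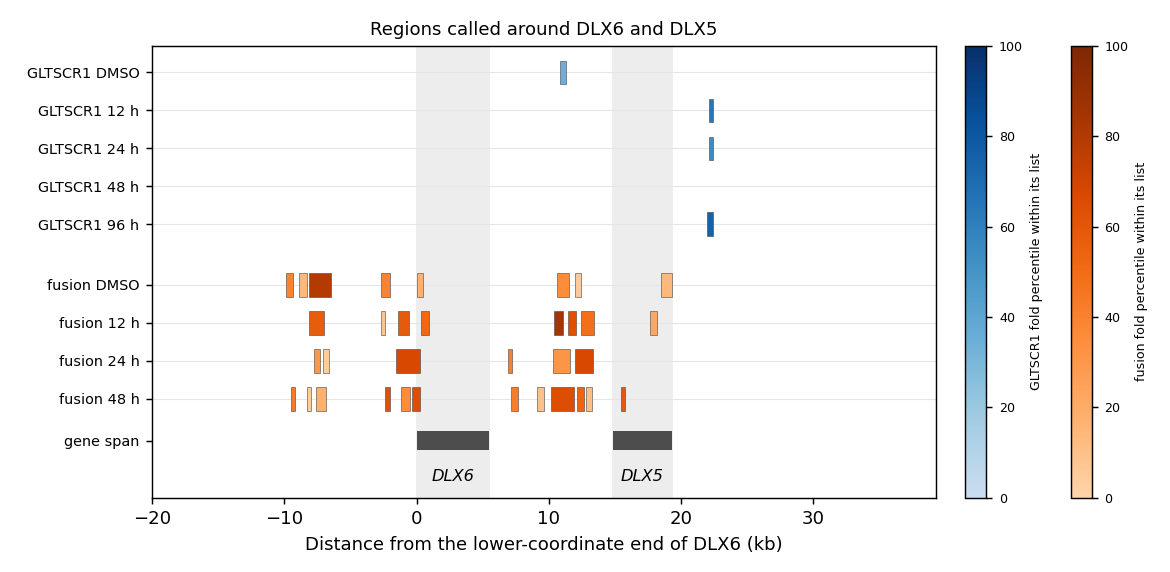
Called regions along the DLX6 and DLX5 window, 1 row per list, by distance in kb from the lower-coordinate end of DLX6, with colour for the fold percentile within the list and grey bars for the gene spans. Fusion rows hold 6 to 12 regions each, GLTSCR1 rows 1 or none.

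DLX5 and DLX6 were marked mainly by the fusion. The window held 8 fusion regions both in DMSO and at 12 h, 6 at 24 h and 12 at 48 h, against 1, 1, 1 and 0 GLTSCR1 regions at the same times and 1 at 96 h. The fusion covered 10.5, 9.56, 9.54 and 11.7% of the window from DMSO to 48 h. Its strongest summits had folds of 6.36 in DMSO (percentile 79.6) and 6.79 at 12 h (percentile 84.1), 5.44 at 24 h (percentile 67.7) and 5.34 at 48 h (percentile 64.8). The place of the strongest summit differed between lists: within DLX6-AS1, an antisense lncRNA gene at DLX6, in DMSO and at 24 h, and between the genes at 12 h. At 48 h the same fold was given to a region between the genes and to another over the start of DLX6.

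Most bases under fusion regions here lay outside the gene spans, which take up only 5.49 kb (DLX6) and 4.44 kb (DLX5) of the 59.3 kb window. Fusion regions covered 7.93, 11.1, 4.77 and 4.05% of the DLX6 span and 17.4, 11.8, 0 and 7.24% of the DLX5 span from DMSO to 48 h. The DLX5 span was thus covered more than the whole window in DMSO (10.5%) and at 12 h (9.56%), and the DLX6 span at 12 h only. Both spans were covered less than the window at 24 h (9.54%) and 48 h (11.7%). Between the genes the fusion regions covered 15.4% in DMSO, 24.2% (12 h), 30.7% (24 h) and 39.2% (48 h), so the 3 WA-68 values all lay above the DMSO one. The 4 fusion lists shared 5 stretches with 1037 bp, of which 429 bp at chr7:97016169-97016597 was the longest, 3.80 kb from DLX5. Stretches of 355 and 86 bp lay in DLX6-AS1, 7.27 and 6.98 kb below DLX6, and 108 and 59 bp lay between the genes. None of the shared bases was inside a DLX5 or DLX6 span.

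The single GLTSCR1 regions at this pair were at different places in DMSO and later. In DMSO the region was at chr7:97016430-97016828 between the genes (fold 4.38, percentile 34.8), and all 399 of its bases were under a fusion region. At 12, 24 and 96 h the region was beyond the upper end of DLX5, with summits 2.97, 2.93 and 2.95 kb from it and folds of 5.56 (percentile 64.5), 4.99 (percentile 53.9) and 6.34 (percentile 75.0). No DMSO region of GLTSCR1 and no fusion region of the same time overlapped it at 12 or 24 h, and 96 h has no fusion library. No annotated gene span of the table covered this place.

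**Figure D4:**
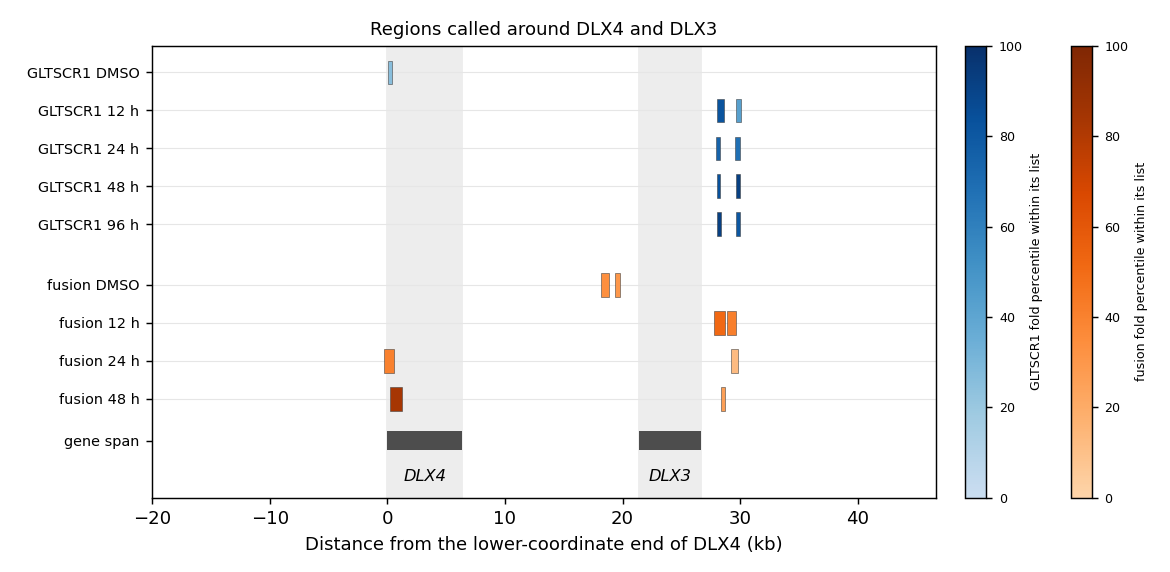
Called regions along the DLX4 and DLX3 window, 1 row per list, by distance in kb from the lower-coordinate end of DLX4, with colour for the fold percentile within the list and grey bars for the gene spans. The 4 later GLTSCR1 rows each show 2 narrow regions beyond DLX3, where the DMSO row has none.

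DLX3 and DLX4 had the fewest regions over both antibodies, 17, though for GLTSCR1 alone DLX5 and DLX6 had fewer (4 against 9). For neither antibody was a DMSO region of DLX3 and DLX4 overlapped later by a region of the same antibody. In DMSO the single GLTSCR1 region was inside DLX4 at chr17:49968604-49968945, with a fold of 4.06 at percentile 25.5, and no GLTSCR1 region overlapped it at a later time. At 12, 24, 48 and 96 h GLTSCR1 had 2 regions each, both beyond the upper end of DLX3, with summits 1.51 to 1.57 kb and 3.13 to 3.16 kb from it. The nearer one had folds of 6.88, 6.07, 7.22 and 9.16 (percentiles 81.9, 74.3, 83.6 and 92.3). The farther one had folds of 4.65, 5.66, 8.91 and 6.78 (percentiles 42.8, 67.9, 91.9 and 80.3). Both therefore ranked above the middle of their lists from 24 h on. The 4 later lists shared 290 bp at chr17:49996587-49996876 and 303 bp at chr17:49998216-49998518, and no annotated gene span of the table covers either.

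The fusion gave DLX3 and DLX4 2 regions in every list. In DMSO both lay between the genes, 2.94 and 2.03 kb from DLX3, with folds of 4.09 (percentile 34.4) and 3.95 (percentile 30.1), and neither was overlapped by a fusion region at 12, 24 or 48 h. At 12 h both lay beyond DLX3, with folds of 4.58 (percentile 51.4) and 4.24 (percentile 41.2), and both were overlapped by a GLTSCR1 region of that time. At 24 and 48 h 1 region lay beyond DLX3 (folds 3.44 and 3.94, percentiles 12.4 and 26.0). The other lay inside DLX4 (folds 4.35 and 6.88, percentiles 40.5 and 83.3), at the place of the GLTSCR1 region of DMSO. The DLX3 span itself was under no region in any of the 9 lists, and was the only DLX span with none.

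**Figure D5:**
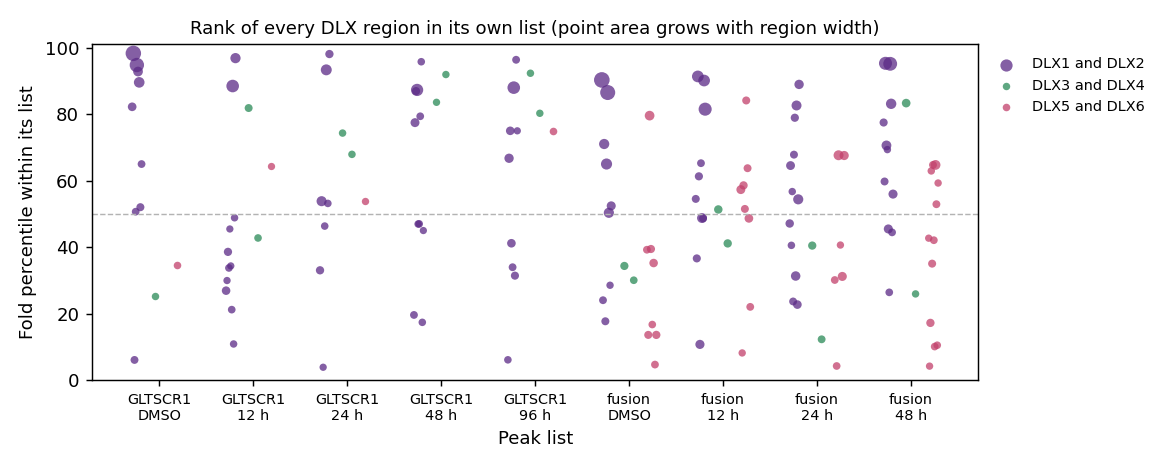
Fold percentile of each of the 143 DLX regions among all regions of its own list, by list and pair, with point area growing with region width and a dashed line at the middle of each list. Points of DLX1 and DLX2 reach percentiles 89.0 to 98.3 in every list; the GLTSCR1 points of DLX3 and DLX4 lie at 42.8 or above in the 4 later lists and at 25.5 in DMSO.

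DMSO regions were followed to later times by overlap of at least 1 bp. For GLTSCR1, 5 of 11 DLX regions of DMSO were still called at 12 h (45.5%, interval 16.7 to 76.6%), against 55.8% of the whole DMSO list. At 24 h they were 5 of 11 (45.5%, 16.7 to 76.6%) against 47.6%, at 48 h 7 of 11 (63.6%, 30.8 to 89.1%) against 43.2%, and at 96 h 6 of 11 (54.5%, 23.4 to 83.3%) against 48.6%. All of these were at DLX1 and DLX2. For the fusion they were 11 of 19 at 12 h (57.9%, 33.5 to 79.7%) against 72.3% of the list. At 24 h 10 of 19 were still called (52.6%, 28.9 to 75.6%) against 64.7%, and at 48 h 12 of 19 (63.2%, 38.4 to 83.7%) against 68.8%. Every interval held the share of its whole list, so at this number of regions no difference from the lists was detectable.

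The same regions can be followed through all times. At DLX1 and DLX2 4 of 9 GLTSCR1 regions of DMSO were overlapped at every later time, where 26.7% of the list was, and 2 of 9 at none, where 26% was. The single DMSO regions at the other pairs were overlapped at none. For the fusion, 5 of 9 at DLX1 and DLX2, 4 of 8 at DLX5 and DLX6 and 0 of 2 at DLX3 and DLX4 were overlapped at every later time, beside 50.8% of the list. In the same order of pairs, 3 of 9, 1 of 8 and 2 of 2 fusion regions of DMSO were overlapped at no later time, beside 14.3%.

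By bases, the DMSO coverage of DLX1 and DLX2 by GLTSCR1 was 47.8% under a region at 12 h, 35.9% (24 h), 39.8% (48 h) and 49.0% (96 h). The whole GLTSCR1 list had 47.1, 41.7, 36.3 and 41.1%. For the fusion the bases at DLX1 and DLX2 were 66.1% (12 h), 51.0% (24 h) and 70.3% (48 h) under a later region, and those at DLX5 and DLX6 37.0, 41.5 and 47.3%, against 75.1, 67 and 71.8% of the whole fusion list. Both pairs thus had lower shares than the list at all 3 times, though DLX1 and DLX2 at 48 h lay close to it. At DLX3 and DLX4 the share was 0% at each time. No interval was made for bases, so no difference from the list is read from them. At DLX5 and DLX6 7 of 8 DMSO regions were overlapped at 48 h, so the later regions there met the DMSO ones over part of their length.

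Regions with no DMSO region of their antibody under them were few at the first pair. Over all pairs they were 4 of 14 GLTSCR1 regions at 12 h (30.6% of the list) and 3 of 10 at 24 h (37.2%). They were 3 of 12 both at 48 h (32.8%) and at 96 h (36.2%). At DLX1 and DLX2 they were 1 of 11, 0 of 7, 1 of 10 and 0 of 9, whereas both regions beyond DLX3 were without one at every time. For the fusion they were 5 of 20 at 12 h (36.1%), 3 of 20 regions of 24 h (28.6%) and 9 of 25 of 48 h (32.1%). Of the 9 at 48 h, 5 were at DLX5 and DLX6. DMSO regions covered 33.6% (GLTSCR1) and 38.8% (fusion) of the DLX1 and DLX2 window. Later regions there could easily touch one by 1 bp, and what this adds to the low counts was not tested.

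The 2 antibodies met at the first pair and seldom at DLX5 and DLX6, where GLTSCR1 had 1 region or none in each list. At the first pair fusion regions covered 21.6 to 38.8% of the window, so an overlap of 1 bp was easily met there. What this adds to the counts was not tested. Over all pairs, 10 of 11 GLTSCR1 regions of DMSO were overlapped by a fusion region (90.9%, interval 58.7 to 99.8%), against 59.3% of the list. At 12 h this was 12 of 14 (85.7%, 57.2 to 98.2%) against 55.2%, at 24 h 8 of 10 (80%, 44.4 to 97.5%) against 54.1%, and at 48 h 8 of 12 (66.7%, 34.9 to 90.1%) against 66.7%. These intervals rest on 10 to 14 regions of few loci, and no difference from the lists is read from them. By strongest summits within 250 bp the shares over all pairs were 18.2, 21.4, 50 and 16.7% from DMSO to 48 h. At DLX1 and DLX2 the fusion lay under 89.9% of the GLTSCR1 bases in DMSO, 81.1% (12 h), 70.1% (24 h) and 90.7% (48 h). Over the whole lists these shares were 55.2, 49, 49.5 and 62.7%.

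Seen from the fusion, the pairs differed. GLTSCR1 regions overlapped 7 of 9 fusion regions at DLX1 and DLX2 in DMSO, where 36.2% of the fusion list was overlapped, 6 of 10 of 12 h (24.2%), 8 of 12 of 24 h (26.6%) and 6 of 11 of 48 h (25.3%). At DLX5 and DLX6 they overlapped 1 of 8, 0 of 8, 0 of 6 and 0 of 12. That window held 1, 1, 1 and 0 GLTSCR1 regions at these times, so few overlaps were possible and the 0 of 12 at 48 h was fixed in advance. At DLX3 and DLX4 the counts were 0 of 2, 2 of 2, 1 of 2 and 0 of 2. Wide regions of both antibodies made an overlap of 1 bp easy to meet at DLX1 and DLX2, and what this adds was not tested.

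Genes that work with the DLX factors were read from a list of 32 chosen from general knowledge: 2 homeobox relatives, 15 genes of the forebrain and 15 of jaw, limb and bone. Of the 32, 17, 16, 15, 16 and 15 had a GLTSCR1 region within 20 kb from DMSO to 96 h, beside 50.3, 47.2, 36.6, 28.8 and 35.8% of protein-coding genes. As shares of the list these are 53.1, 50, 46.9, 50 and 46.9%, close to all genes in DMSO and at 12 h. A fusion region was found for 23, 20, 24 and 22 (71.9, 62.5, 75 and 68.8%) from DMSO to 48 h, beside 33.9, 33.6, 30.9 and 32.7%. Regions in all 9 lists were found for 14 of 32, beside 11.6% of protein-coding genes, and in none for 8 of 32, beside 31.7%. Those in all lists included MSX1, a homeobox relative of the DLX genes, the forebrain genes NKX2-1, SP9, ZEB2 and MAF, and RUNX2, SP7, BMP4, BMP7, GBX2, FGF8 and BARX1 of jaw, limb and bone. Those in none included MSX2, GAD2, EDN1, EDNRA, HAND2, TP63 and BMP2. GAD1, which makes the transmitter GABA in the interneurons that DLX1 and DLX2 specify, had a region in 8 lists, and GAD2, the second such enzyme, in none. In DMSO GLTSCR1 covered 44.4% of the DLX2 gene window and the fusion 51.2%, against 32.0 and 33.7% for SP9, a zinc finger factor of the same neurons. EDN1 and EDNRA, the endothelin signal upstream of DLX5 and DLX6 in the mouse jaw, and HAND2 downstream of it had no region in any list. In the jaw, limb and bone group 5 of 15 genes had none, near the 31.7% of all protein-coding genes. Of the same 15 genes, 8 had a region in all 9 lists, so nothing about a pathway is read from the genes without one.

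The protein-coding neighbours had lower covered shares than DLX1 and DLX2, over longer windows. Neighbour windows ran from 48.4 kb (TAC1) to 268 kb (SEM1), and DLX gene windows from 43.5 kb (DLX2) to 46.4 kb (DLX4). The same regions give a lower share of a longer window, and what length adds here was not tested. Mean coverage over the 9 lists was 31.1% for DLX1 and 31.3% for DLX2, against 9.95% for METAP1D, which had regions in all 9 lists. The METAP1D window of 122 kb overlaps that of DLX1 (44.2 kb), so the 2 shares count many of the same bases. The next gene below, the histone acetyltransferase gene HAT1, had regions in 3 lists. Above DLX2, the integrin gene ITGA6 had regions in 7 lists and the pyruvate dehydrogenase kinase gene PDK1 in 0. Around DLX3 and DLX4, TAC4 had regions in 3 lists, KAT7 in 2, ITGA3 in 5 and PDK2 in 8. Around DLX5 and DLX6, SEM1 had regions in 2 lists, SLC25A13 in 5, SDHAF3 in 2 and TAC1 in 0. Mean coverage was 1.69% for DLX3, 0.795% for DLX4, 4.87% for DLX5 and 6.31% for DLX6, against at most 0.782% (PDK2) among the 11 neighbours other than METAP1D.

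The genes most like each DLX gene were taken by the mean absolute difference of covered shares over the 9 lists. For DLX1 and DLX2 they were LOC124903570, at 3.58 and 3.69 percentage points, and the homeobox gene HOXC4, at 3.98 and 3.97 points, and among genes whose windows do not overlap theirs none was within 1 point of either. DLX3 was nearest to FH (0.449 points) and CRB2 (0.513 points), with 241 genes within 1 point. DLX5 was nearest to NTNG2 (0.498) and ERMARD (0.581), with 31 genes within 1 point, and DLX6 to DGAT1 (0.541) and TMEM106A (0.634), with 15. DLX4 was nearest to ZCCHC12 (0.233) and FIBP (0.263), but 14708 genes were within 1 point of it, so its likeness names no particular pattern.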

How the data were processed

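The deposited files were peak lists, 1 for each of 9 ChIP libraries. The submitters' processing notes name the builds GRCh38 and hg38. They list MACS2, BWA with SAMtools and Picard, deepTools, and for the reads bcl2fastq, cutadapt, Trim Galore and FastQC. The sources used here give no versions and no settings. For each summit the authors deposited a fold enrichment (a linear ratio), a −log10 p and a −log10 q value, and a display score. The lowest deposited −log10 q was 3.00 in every list.

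Entries with the same coordinates were joined into 1 region carrying its strongest summit. Regions were kept on chromosomes 1 to 22, X and Y. Gene spans came from the RefSeq GRCh38.p14 table, which gives no strand or exons, and promoters from the matching table; all 6 DLX genes and all 32 related genes matched by symbol. Overlap meant 1 bp or more. Read depth is not recorded in these lists, so precision is given only as exact Clopper-Pearson 95% intervals for shares. The samples were grouped by antibody and treatment, and no test was made. Named were the DLX genes, up to 2 protein-coding neighbours a side, related genes called in all or no lists, and the 2 genes most alike, outside overlapping windows. Some related genes under this rule are not reported here. GAD1 and SP9 were singled out after their values were seen. The members and lists were chosen with earlier results of these data known. Alternatives were other windows (10 kb, 50 kb, gene span alone), overlaps (50% of the shorter region, summits within 250 bp), −log10 q of at least 5, merging within 500 bp and lists of equal length. Protein sequences were not used here, so a planned comparison of the 6 proteins was not made. Scripts (Python 3.11.15, pandas 2.3.3, NumPy 2.4.6, SciPy 1.17.1, matplotlib 3.10.9) were tested on simulated data.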

Additional observations from a re-analysis of the deposited data

How the results depend on the processing

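Counts and covered bases were read as unchanged within 1.5 times, and shares within their binomial interval. This is a loose measure for shares, whose intervals are wide: 36.4% by summits counted as unchanged from 63.6% (GLTSCR1 DMSO regions still called at 48 h). The windows of 10 and 50 kb also held nearly the same regions as that of 20 kb. By that measure 146 of 178 alternative values of the main results and 57 of 59 of the strongest folds in DMSO were unchanged; with the span alone DLX2 had 9.45 for GLTSCR1 (percentile 92.8 of its list) and DLX6 3.57 for the fusion (percentile 16.8). Settings that left a gene with no region gave no fold. With the gene span alone, regions summed over lists numbered 16 at DLX1 and DLX2 for GLTSCR1 (46 with 20 kb) and 17 for the fusion (42), 1 and 2 at DLX3 and DLX4 (9 and 8), and 0 and 7 at DLX5 and DLX6 (4 and 34). At −log10 q of at least 5 the fusion kept 4 of 8 regions at DLX3 and DLX4. The median covered share at DLX1 and DLX2 was 25.8% with 10 kb and 8.43% with 50 kb for GLTSCR1 (16.8% with 20 kb), and 14.9% with 50 kb and 61.0% with the span alone for the fusion (30.5%). At DLX3 and DLX4 it was 0.535% with 50 kb and 0% with the span for GLTSCR1 (1.02%), and 1.05% with 50 kb for the fusion (1.99%). At DLX5 and DLX6 it was 0.756, 0.249 and 0% with 10 kb, 50 kb and the span for GLTSCR1 (0.501%), and 15.1 and 4.97% with 10 and 50 kb for the fusion (10.0%). Related genes in all lists numbered 6 with the span alone (14).

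Strongest summits within 250 bp gave lower shares. Shares of the whole lists by summits are not given here, so the fall is not read as particular to the DLX regions. DMSO regions still called by summits were 9.09% for GLTSCR1 at 12 h (45.5% by overlap) and 26.3% for the fusion at 12, 24 and 48 h (57.9, 52.6 and 63.2%). For GLTSCR1 at 24, 48 and 96 h they were 27.3, 36.4 and 36.4% (45.5, 63.6 and 54.5%), within the intervals. With the span alone the fusion's were 85.7% at both 12 and 24 h, and with merging 80% at 12 h. GLTSCR1 regions with the fusion were 18.2, 21.4 and 16.7% by summits in DMSO, at 12 and at 48 h (90.9, 85.7 and 66.7% by overlap), and 100% with the span alone at 24 and 48 h, where 2 and 3 regions were left. By summits at 24 h this share was 50% (80% by overlap), within its interval. Wide regions with up to 14 summits carry only their strongest in the comparison by summits. No paired analysis was possible because each group holds 1 library and no result here comes from a test. With 1 library a group, no library could be left out, and differences between times were not set against any spread between cultures. Depth, antibody efficiency and the widths the caller gives were not tested.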
